A study of Mus musculus with 21 samples.

Results

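The subject is the autophagy machinery of conventional dendritic cells (cDCs), taken as 38 mouse genes chosen by gene name out of the 37734 genes in the files. The name of 37 genes matched directly, and Atg101 was matched by its Ensembl identifier because the files list it under an older clone name. All 38 genes had a normalized read count of at least 10 in at least 3 samples and were tested. The expression of these genes was measured by RNAseq in cDC1 and cDC2, the subsets of cDCs specialised in presenting antigens to CD8 and to CD4 T cells, sorted from the spleen and thymus of C57BL/6 mice. The animals were 6 to 8 weeks old, carried no engineered allele named in the labels, and received no treatment named there. Each library came from pooled tissue of 10 to 15 mice.

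The 6 groups were immature splenic cDC1 (SP1Minus), immature thymic cDC1 (TH1Minus), mature thymic cDC1 (TH1Plus), and the matching cDC2 groups SP2Minus, TH2Minus and TH2Plus. Mature cells carried both CCR7 and ESAM at the surface and immature cells carried neither. cDC1 were gated as CD24+ CD11b- and cDC2 as CD24- CD11b+, both within CD11c+ B220- cells. The cDC1 gate also left out cells with F4/80, Ly6g, Ly6c or DX5, which the labels do not state for cDC2. The paper, however, defines both subsets as negative for F4/80 in its general gating. Because immature cells were taken as Esam-, splenic cDC2 that carry ESAM were not part of SP2Minus. No mature splenic group was analysed here, so the effect of maturation was followed in the thymus and the effect of tissue in immature cells. There were 21 libraries of 14266867 to 40119669 counted reads. The last 2 splenic cDC1 libraries shared their label and differed by much less than other pairs of that group (chi-square per degree of freedom 2.44, against 25.0 to 176 for the other pairs), so their mean was used as 1 sample. TH1Minus replicates 3 and 4 also shared a label, but differed by more than the other pairs (92.8, against 22.8 to 86.1) and were kept apart, and SP1Minus replicate 1 carried the same label number as the merged pair. This left 4 samples of SP1Minus, 4 of TH1Minus and 3 of each other group, 20 in all. TH2Plus replicate 3 stood apart from the other mature cDC2 libraries (chi-square per degree of freedom 125 and 144, against 26.9 between the other 2), and without it 24 members passed in cDC2 maturation in place of 28. Also apart from the rest of their groups were SP2Minus replicate 2 (106 and 132, against 35.3), SP1Minus replicate 3 (123 to 176 with replicates 1, 2 and 4, against 25.3 to 54.4 among those) and TH1Minus replicate 3 (56.1 to 92.8, against 22.8 to 37.3). Members that passed for tissue in cDC2 were 16 without SP2Minus replicate 2, 12 without SP1Minus replicate 3 and 12 without TH1Minus replicate 3, in place of 10. Between subsets in the spleen they were 11 without SP2Minus replicate 2 and 12 without SP1Minus replicate 3, in place of 8, and in the immature thymus 8 without TH1Minus replicate 3, in place of 10. Shares of all genes in these fits are not given, so nothing particular to the members is read from these counts. All 6 mature libraries were run in lane 8, whereas immature groups were spread over lanes 5 and 8.

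Macroautophagy encloses cytoplasm in a double membrane and delivers it to lysosomes. The ULK kinase complex starts the process, the class III phosphatidylinositol 3-kinase complex marks the membrane with a lipid, and ATG9, ATG2 and WIPI proteins supply and position lipids. Ubiquitin-like conjugation then attaches ATG8 proteins to the membrane, where cargo receptors dock with their load. In antigen-presenting cells this route also brings cytosolic proteins to compartments where MHC class II molecules are loaded, and thymic presentation of self-antigens is one setting in which it has been studied.

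The immature sorted cells carried the subset markers of their labels, and the mature cells did so in part. The normalized read count of Xcr1, a cDC1 chemokine receptor, was 8385 to 15629 in SP1Minus and 16194 to 20744 in TH1Minus but 26.1 to 64.1 in SP2Minus and 88.6 to 364 in TH2Minus. Sirpa, a cDC2 surface receptor, was at 18967 to 28215 in SP2Minus and 13773 to 16706 in TH2Minus, against 749 to 1548 and 173 to 265 in the cDC1 groups of the same tissues. Ccr7, the receptor that marks mature cDCs, was at 92666 to 129531 in TH1Plus and 91722 to 115572 in TH2Plus. Its immature levels were 261 to 726 in SP1Minus, 556 to 966 in TH1Minus, 2008 to 5433 in SP2Minus and 2662 to 3986 in TH2Minus. Several subset markers were low in mature cells, where Xcr1 was at 253 to 557 in TH1Plus and Cd209a at 23.5 to 215 in TH2Plus, so in these groups the subset rested on the sort and on the markers that remained, such as Sirpa at 5415 to 8425 in TH2Plus against 286 to 481 in TH1Plus. The 5 cDC1 markers (Xcr1, Clec9a, Cadm1, Irf8 and Batf3) summed to 2818 to 4785 in TH2Minus and 14299 to 22307 in TH2Plus, since Irf8 and Batf3 rose above 2-fold with maturation of cDC2 while the other 3 fell. The 5 cDC2 markers summed to 46867 to 49132 in TH2Minus and 13928 to 17615 in TH2Plus. What this means for the subset label was not tested.

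Promoter letters were examined for 3 motifs, searched on both strands in windows from 250 bases before to 50 bases after each RefSeq transcript start (GRCm38.p6). Of the 38 members, 32 had such a window. The E-box CACGTG is the core of the element bound by TFEB, a regulator of lysosomal and autophagy genes. It stood in the windows of 4 members (Atg14, Atg3, Atg5 and Atg7) and in those of 8.09% of all 27025 genes with a window. The core of the antioxidant response element (TGAC, any 3 bases, GC), the site of NRF2, was found in 4 members (Atg13, Map1lc3b, Tax1bp1 and Ulk2) and in 14.0% of all genes. A loose form of the kappaB motif (GGG, any 5 bases, CC) was found in 21 of 32 members and in 53.5% of all genes. The kappaB site is bound by NF-kappaB factors, but a match to so common a pattern need not be such a site. The stretches shown are free of annotated exons and written 5′ to 3′ on the strand of the gene, with motif letters in capitals. Sqstm1 and Uvrag are given as members that rose with maturation in both subsets and hold kappaB matches, and Atg3 and Atg7 as members that fell with it, in both subsets and in cDC2, and hold an E-box.
Sqstm1 kappaB, chr11:50210828-50210889, minus strand: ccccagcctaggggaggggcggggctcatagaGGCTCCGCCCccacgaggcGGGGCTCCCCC
Uvrag kappaB, chr7:99141145-99141394, minus strand: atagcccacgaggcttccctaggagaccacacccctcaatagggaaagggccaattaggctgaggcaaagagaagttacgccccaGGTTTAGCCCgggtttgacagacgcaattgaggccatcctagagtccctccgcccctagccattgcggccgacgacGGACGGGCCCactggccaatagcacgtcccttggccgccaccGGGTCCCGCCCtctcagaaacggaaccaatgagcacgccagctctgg
Atg3 E-box, chr16:45158707-45158784, plus strand: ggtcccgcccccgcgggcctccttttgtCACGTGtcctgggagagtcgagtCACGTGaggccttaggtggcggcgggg
Atg7 E-box, chr6:114670846-114671095, plus strand: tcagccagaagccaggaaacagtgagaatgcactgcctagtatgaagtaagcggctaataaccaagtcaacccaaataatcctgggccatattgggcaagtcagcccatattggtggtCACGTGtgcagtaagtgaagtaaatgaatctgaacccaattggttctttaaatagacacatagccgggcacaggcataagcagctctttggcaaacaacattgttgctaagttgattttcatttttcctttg
The 62 bases before Sqstm1 held 3 kappaB matches, 2 of them overlapping, and the 250 bases before Uvrag held 4, again with 1 overlapping pair. The E-boxes of Atg3 lay at positions -94 and -71 and that of Atg7 at position -132, counted from the start of the RefSeq transcript. For Atg7 that start is internal, since the gene as annotated by GENCODE begins upstream of it and the printed stretch lies within the gene. E-boxes were present in members that moved in opposite directions with maturation, since Atg14 rose and Atg3 fell in both subsets. The same holds for kappaB matches, which Sqstm1 and Uvrag share with Atg2b and Atg3, the members that fell in both subsets. The printed Atg3 stretch also begins with a kappaB match, left in lower case, that shares no base with its E-boxes. A match describes letters in the window and no binding was measured.

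The levels of the members relative to each other were compared as the mean normalized read count per kilobase of exon. Gabarap, an ATG8-family protein, had the highest level per kilobase in every group but TH1Plus, with 3983 in SP1Minus, 3950 in TH1Minus, 2822 in SP2Minus, 4056 in TH2Minus and 7418 in TH2Plus. In TH1Plus it reached 8568 and stood below Sqstm1, which encodes the cargo receptor p62, at 10161. Sqstm1 was second in each other group, with 1648 per kilobase in TH2Minus and 5326 in TH2Plus. Wipi1, a protein that binds phosphatidylinositol 3-phosphate, was the lowest per kilobase in all 6 groups, from 3.27 in TH1Minus to 26.4 in TH2Plus, and rested on 2 to 179 whole reads per sample.

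**Figure D1:**
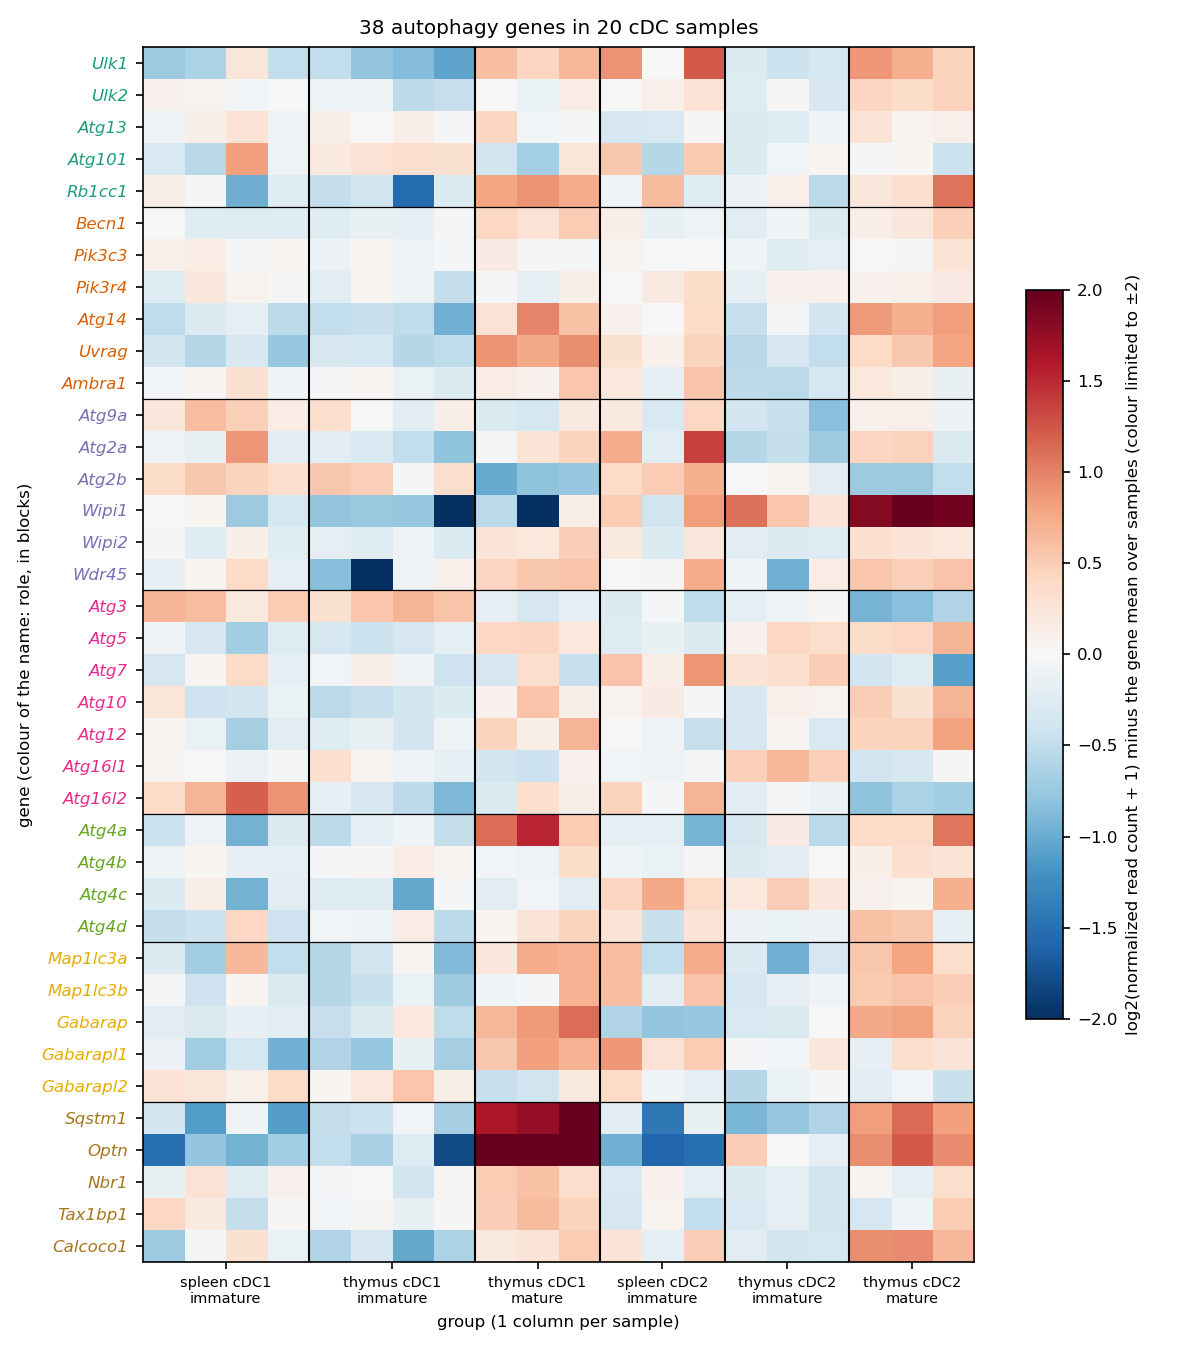
Heat map of the 38 genes (vertical axis, in blocks by role) in the 20 samples (horizontal axis, grouped), coloured by the log2 of the normalized read count plus 1 minus the gene's mean over the samples. Sqstm1 and Optn are highest in mature thymic cDC1, Atg2b is lowest in both mature groups, and Wipi1 is highest in mature thymic cDC2.

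The first comparison asked how the machinery differs between mature and immature cDCs of the thymus. In cDC1, 24 members rose and 3 fell with maturation at an adjusted p below 0.1, against 30.4% of the 14970 tested genes that rose and 33.7% that fell. In cDC2, 23 rose and 5 fell, against 27.7% and 25.5% of tested genes. Changes above 2-fold were seen for 12 members in cDC1 (11 higher, 1 lower) and 7 in cDC2 (all higher), against 45.7% and 35.6% of tested genes in either direction. The median log2 fold change of the 38 members was 0.56 in cDC1 and 0.52 in cDC2, and that of all tested genes was -0.04 and 0.04. The members that passed therefore lay mostly on the higher side, while the share above 2-fold was below that of all genes. These values compare bulk RNA, in which a change in the make-up of the sorted cells and a change in RNA per cell cannot be told apart.

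The same 19 members rose in both subsets, namely Ulk1, Ulk2 and Rb1cc1 of the ULK complex, Becn1, Atg14, Uvrag and Ambra1 of the lipid kinase complex, Atg2a, Wipi2, Atg10, Atg12 and Atg4a, the ATG8 proteins Map1lc3a, Map1lc3b and Gabarap, and the receptors Sqstm1, Optn, Nbr1 and Calcoco1. Atg2b and Atg3 fell in both. Atg16l2 rose in cDC1 and fell in cDC2. The test was passed in cDC1 but not in cDC2 by 5 members (Atg5, Gabarapl1, Gabarapl2, Tax1bp1 and Wdr45) and in cDC2 but not in cDC1 by 6 (Atg13, Atg16l1, Atg4b, Atg7, Atg9a and Wipi1). The remaining 5 (Atg101, Atg4c, Atg4d, Pik3c3 and Pik3r4) passed in neither. The test of the difference between the subsets was passed by 5 members, against 18.5% of all tested genes, and is given with each gene concerned.

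**Figure D2:**
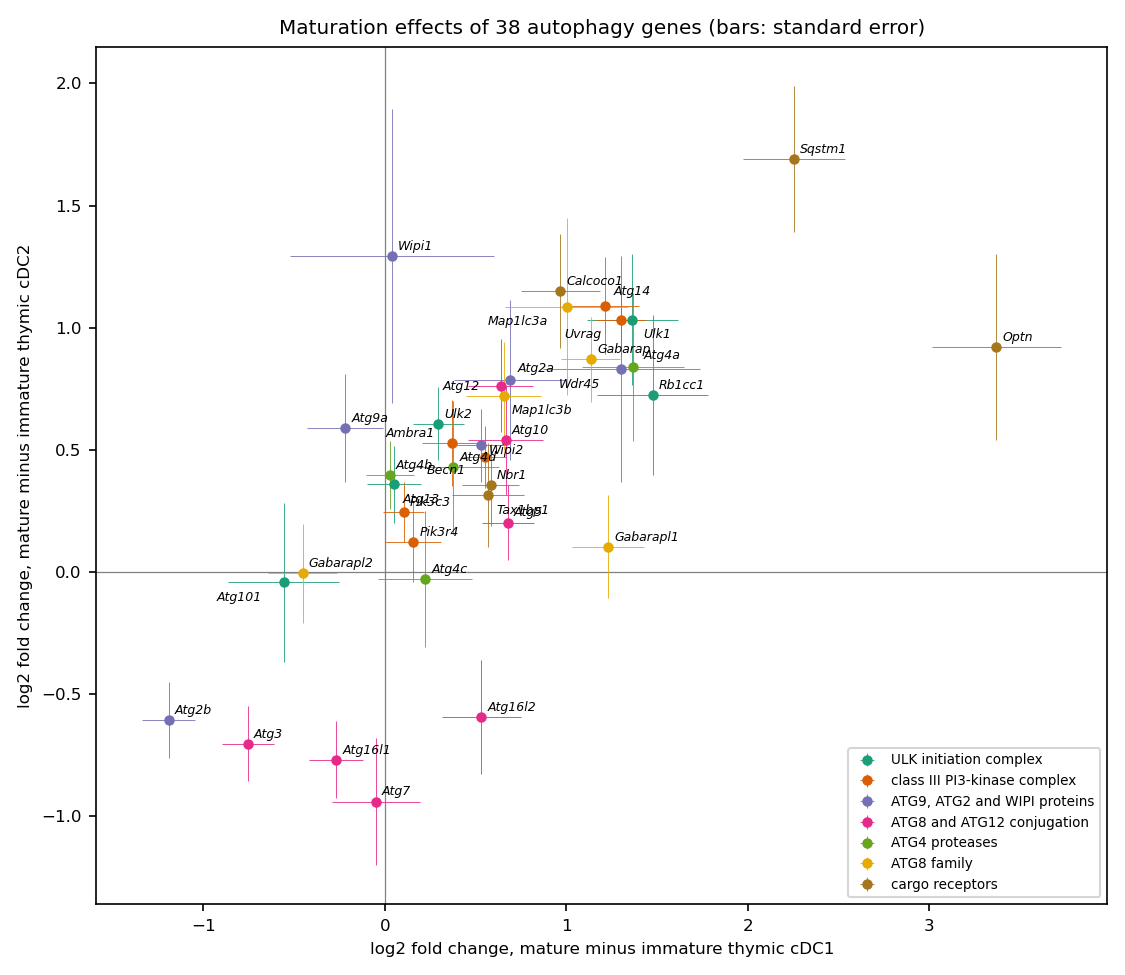
Change with maturation (log2 fold change) in thymic cDC1 (horizontal axis) and thymic cDC2 (vertical axis) for the 38 genes, coloured by role, with standard errors as bars. Most genes lie above 0 on both axes, Optn lies far to the right (3.37 in cDC1, 0.92 in cDC2), and Atg2b and Atg3 lie below 0 on both.

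The cargo receptors, which tie ubiquitinated or other load to ATG8 proteins, held the largest changes, those of Optn and Sqstm1 in cDC1 and of Sqstm1 in cDC2. All 5 rose in cDC1 and 4 in cDC2, against 30.4% and 27.7% of all tested genes, with median log2 fold changes of 0.97 and 0.92. In cDC1 Nbr1 (0.58) and Tax1bp1 (0.57) were near the median of all members (0.56). Sqstm1 (chr11:50199366-50210827, minus strand, GRCm38) had normalized read counts of 6751, 6957, 9025 and 5869 in the immature cDC1 samples and 29013, 31636 and 41653 in the mature ones. In cDC2 it went from 4959, 5501 and 6134 to 16740, 20426 and 16456. No mature sample overlapped an immature one in either subset. The log2 fold change was 2.25 ± 0.28 (standard error) in cDC1 (adjusted p = 7.24e-07, limma, 3 against 4 samples) and 1.69 ± 0.30 in cDC2 (adjusted p = 9.37e-05, 3 against 3 samples), and the difference between the subsets did not pass (-0.56 ± 0.41, adjusted p = 0.409).

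Optn (chr2:5020642-5064051, minus strand, GRCm38) encodes optineurin, a receptor for ubiquitinated mitochondria and bacteria. Its normalized read counts were 63.4, 56.6, 74.9 and 25.3 in immature and 601, 392 and 660 in mature thymic cDC1. In cDC2 the immature samples were at 127, 90.4 and 79.4 and the mature ones at 171, 211 and 174. Every mature sample was above every immature one in both subsets, by a wider margin in cDC1. The log2 fold change was 3.37 ± 0.36 in cDC1 (adjusted p = 7.51e-08) and 0.92 ± 0.38 in cDC2 (adjusted p = 0.0532), and the difference of -2.45 ± 0.52 passed (adjusted p = 0.00362). The cDC2 call was lost without TH2Minus replicate 2, TH2Minus replicate 3 or TH2Plus replicate 2 (adjusted p up to 0.164, without TH2Minus replicate 3).

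Calcoco1, a receptor linked to turnover of the endoplasmic reticulum, rose from 339, 410, 251 and 332 to 588, 615 and 733 in cDC1 and from 443, 398 and 403 to 977, 988 and 808 in cDC2. The groups did not overlap, and the log2 fold changes were 0.97 ± 0.22 (adjusted p = 0.000766) and 1.15 ± 0.23 (adjusted p = 0.000402). Nbr1, a receptor for ubiquitinated aggregates, was at 2000, 2035, 1579 and 2098 in TH1Minus, 2922, 3092 and 2614 in TH1Plus, 1703, 1818 and 1570 in TH2Minus and 2124, 1819 and 2628 in TH2Plus. Its mature samples were all above the immature ones, though narrowly in cDC2, with log2 fold changes of 0.58 ± 0.16 (adjusted p = 0.0033) and 0.35 ± 0.17 (adjusted p = 0.0912). The cDC2 call of Nbr1 was lost in 7 of 20 fits that left out 1 sample (adjusted p up to 0.357, without TH2Plus replicate 3). It was also lost with no filter on low values and in lane 8 only (0.36, adjusted p = 0.173). Tax1bp1, which also acts in xenophagy and in restraint of NF-kappaB signalling, was at 6872, 7234, 6435 and 7253 in TH1Minus and 10080, 11093 and 9758 in TH1Plus, without overlap (0.57 ± 0.20, adjusted p = 0.0183). In cDC2 the counts of 5776, 6241 and 5506 and 5642, 6689 and 10115 overlapped and the log2 fold change of 0.31 ± 0.21 did not pass.

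**Figure D3:**
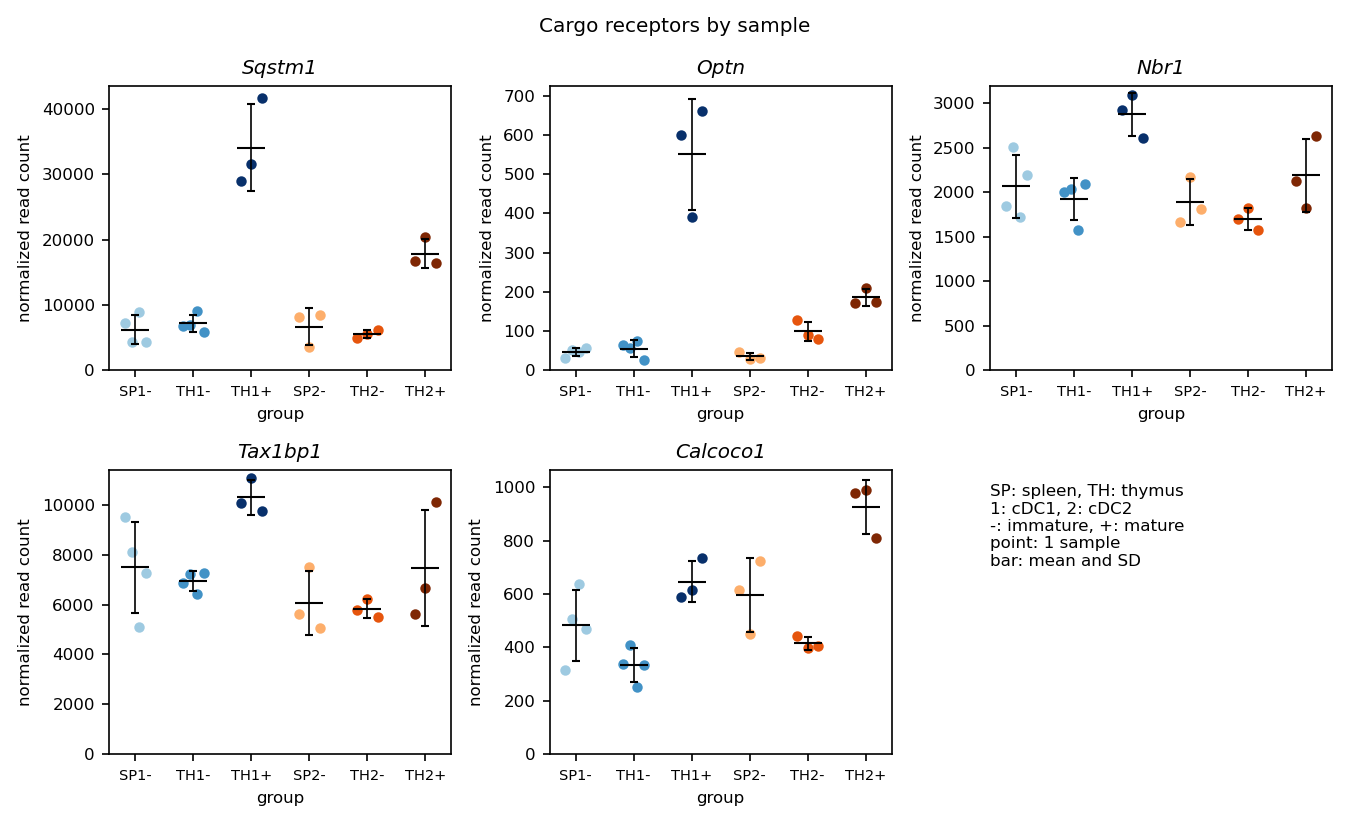
Normalized read count (vertical axis, linear, from 0) of the 5 cargo receptors in the 6 groups (horizontal axis), 1 point per sample with the mean and SD as bars. The mature thymic cDC1 samples of Sqstm1 (29013 to 41653) and Optn (392 to 660) lie above every other sample.

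The ATG8 family, the ubiquitin-like proteins placed on the forming membrane, had 4 higher and 1 lower member in mature cDC1 and 3 higher in mature cDC2. Gabarap (chr11:69991143-69994951, plus strand, GRCm38) had normalized read counts of 6221, 7022, 9910 and 5984 in TH1Minus, 13490, 15450 and 18461 in TH1Plus, 6927, 6958 and 8553 in TH2Minus and 14396, 14870 and 11772 in TH2Plus. All mature samples were above all immature ones, with log2 fold changes of 1.14 ± 0.16 (adjusted p = 4.65e-06) and 0.87 ± 0.17 (adjusted p = 0.000319). Map1lc3a, one of the LC3 genes, was at 135, 153, 208 and 108, then 234, 336 and 326, in immature and mature cDC1, and at 163, 102 and 159, then 291, 346 and 256, in cDC2. It rose without overlap by a log2 fold change of 1.00 ± 0.34 (adjusted p = 0.0156) and 1.09 ± 0.36 (adjusted p = 0.018).

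Map1lc3b, the source of the LC3B protein used to count autophagosomes, was at 1957, 2126, 2637 and 1766 in TH1Minus and 2728, 2820 and 4689 in TH1Plus. In cDC2 it was at 2294, 2599 and 2748 in immature and 4183, 4324 and 4067 in mature samples. The groups did not overlap in either subset, with log2 fold changes of 0.65 ± 0.21 (adjusted p = 0.0102) and 0.72 ± 0.22 (adjusted p = 0.0108). The cDC1 call was lost without TH1Plus replicate 3 (adjusted p = 0.103), with a log2 fold change of 0.40. Reads of Map1lc3b can be shared with 4 processed pseudogenes of 96.1% to 99.6% identity over 280 to 285 bases, whose highest normalized read count was 182. Shorter stretches are shared with many other genes, some at high counts. Among these were Slfn5 (98.2% over 170 bases, up to 7509) and Tapbpl (96.5% over 170 bases, up to 12394).

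Gabarapl1 rose in cDC1 alone by the test of each subset, and the difference between the subsets passed as well (-1.13 ± 0.29, adjusted p = 0.0127). Its normalized read counts were 1361, 1219, 1849 and 1304 in TH1Minus and 2992, 3638 and 3349 in TH1Plus, without overlap (1.23 ± 0.20, adjusted p = 1.88e-05). In cDC2 the immature samples at 2011, 1991 and 2405 and the mature ones at 1838, 2625 and 2472 overlapped (0.10 ± 0.21, adjusted p = 0.728). Gabarapl2 was the ATG8 member that fell in cDC1, from 1303, 1471, 1871 and 1380 to 918, 967 and 1458, with 1 mature sample among the immature ones (-0.45 ± 0.19, adjusted p = 0.0466). That call was lost without TH1Minus replicate 3, TH1Plus replicate 1 or TH1Plus replicate 2 (adjusted p up to 0.202, without TH1Plus replicate 1). In cDC2 Gabarapl2 was at 858, 1163 and 1252 and 1084, 1221 and 935 and did not pass. Gabarapl2 is 96.6% to 99.4% identical to the processed pseudogenes Gm6051, Gm5829 and Gm3724 over 349 to 352 bases. No normalized read count is given for these copies.

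**Figure D4:**
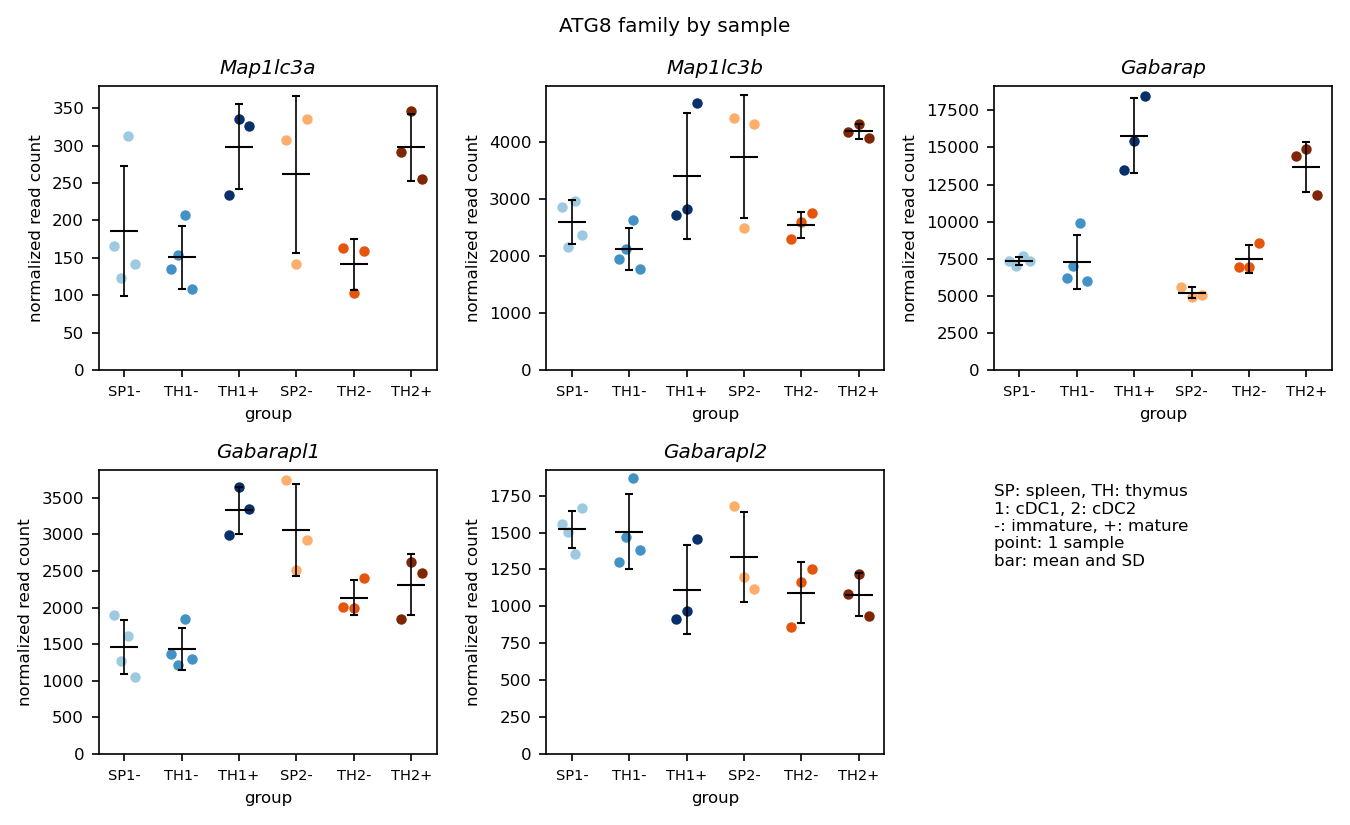
Normalized read count (vertical axis, linear, from 0) of the 5 ATG8-family genes in the 6 groups (horizontal axis), 1 point per sample with the mean and SD as bars. Gabarap is higher in both mature groups (13490 to 18461 in cDC1, 11772 to 14870 in cDC2), whereas Gabarapl1 is higher in mature cDC1 (2992 to 3638) and its mature and immature cDC2 samples overlap.

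Of the ULK complex, 3 of 5 members rose in cDC1 and 4 in cDC2. Ulk1, the kinase that starts autophagosome formation, was at 396, 323, 306 and 270 in TH1Minus and 850, 750 and 887 in TH1Plus, and at 462, 416 and 436 in TH2Minus and 1021, 927 and 762 in TH2Plus. The groups stood apart in both subsets (1.36 ± 0.25, adjusted p = 9.43e-05 in cDC1 and 1.03 ± 0.27, adjusted p = 0.00337 in cDC2). Rb1cc1, the scaffold FIP200, rose from 1039, 1090, 495 and 1198 to 2487, 2676 and 2404 in cDC1 (1.48 ± 0.31, adjusted p = 0.000313) and from 1333, 1549 and 997 to 1679, 1812 and 3054 in cDC2 (0.72 ± 0.33, adjusted p = 0.0757). Its groups did not overlap, but the cDC2 call was lost without TH2Minus replicate 1, TH2Minus replicate 3 or TH2Plus replicate 3 (adjusted p up to 0.318, without TH2Plus replicate 3). That call was also lost with no filter on low values and in lane 8 only (0.76, adjusted p = 0.121). The kinase Ulk2 rose by 0.29 ± 0.14 and 0.61 ± 0.15, with 1 overlap in cDC1. The cDC1 call of Ulk2 was lost without TH1Minus replicate 3, TH1Minus replicate 4, TH1Plus replicate 1 or TH1Plus replicate 3 (adjusted p up to 0.244, without TH1Plus replicate 3). It was also lost with 1 sample per label number (adjusted p = 0.197), edgeR with TMM factors, no filter on low values and only the groups compared. Atg13, a regulatory subunit, rose in cDC2 (0.36 ± 0.16, adjusted p = 0.0688), a call lost without TH2Minus replicate 1, TH2Minus replicate 2 or TH2Plus replicate 1 (adjusted p up to 0.203, without TH2Plus replicate 1). It was also lost with lane as a covariate and in lane 8 only (0.32, adjusted p = 0.219). Atg101, the partner of Atg13, did not pass (-0.56 ± 0.31 and -0.04 ± 0.33).

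In the class III lipid kinase complex, 4 of 6 members rose in each subset, and the kinase itself did not pass. Uvrag (chr7:98885021-99141141, minus strand, GRCm38), the subunit of the complex at endosomes and autophagosomes, had normalized read counts of 6939, 6839, 5834 and 6142 in TH1Minus, 16157, 14727 and 16559 in TH1Plus, 5926, 6894 and 6162 in TH2Minus and 11465, 12590 and 14956 in TH2Plus. All mature samples were above all immature thymic ones, with log2 fold changes of 1.30 ± 0.14 (adjusted p = 8.32e-08) and 1.03 ± 0.15 (adjusted p = 7.88e-06). Atg14, the subunit that directs the complex to sites of autophagosome formation, rose from 335, 346, 331 and 243 to 577, 924 and 705 in cDC1 and from 343, 464 and 361 to 847, 782 and 841 in cDC2. The groups did not overlap (1.21 ± 0.19, adjusted p = 1.14e-05, and 1.09 ± 0.20, adjusted p = 0.000131). Becn1, the Beclin 1 subunit, rose by 0.55 ± 0.12 and 0.47 ± 0.13, and Ambra1, which activates Beclin 1, by 0.37 ± 0.17 and 0.53 ± 0.18. The cDC1 call of Ambra1 was lost without TH1Minus replicate 4 or TH1Plus replicate 3 (adjusted p up to 0.292, without TH1Plus replicate 3) and with 1 sample per label number (adjusted p = 0.121). The catalytic subunit Pik3c3 (0.10 ± 0.11 and 0.25 ± 0.12) and its anchor Pik3r4 (0.16 ± 0.15 and 0.12 ± 0.17) passed in neither subset.

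The lipid transfer proteins ATG2A and ATG2B, which bridge the endoplasmic reticulum and the growing membrane, moved in opposite directions. Atg2a was at 835, 786, 690 and 557 in TH1Minus and 951, 1182 and 1326 in TH1Plus, and at 658, 700 and 597 in TH2Minus and 1317, 1347 and 795 in TH2Plus. The rises of 0.69 ± 0.31 (adjusted p = 0.06) and 0.79 ± 0.33 (adjusted p = 0.0545) passed without overlap of the groups. The cDC1 call was lost without TH1Minus replicate 4, TH1Plus replicate 2 or TH1Plus replicate 3 (adjusted p up to 0.168, without TH1Plus replicate 3) and with 1 sample per label number (adjusted p = 0.123). The cDC2 call was lost without TH2Minus replicate 3, TH2Plus replicate 1 or TH2Plus replicate 2 (adjusted p up to 0.169, without TH2Plus replicate 2). Atg2b (chr12:105616136-105685211, minus strand, GRCm38), which was picked for its values in every sample after those were seen, fell from 1636, 1558, 1097 and 1438 to 559, 641 and 665 in cDC1 and from 1134, 1185 and 966 to 682, 676 and 796 in cDC2. All mature samples were below all immature ones (-1.19 ± 0.15, adjusted p = 5.54e-07, and -0.61 ± 0.16, adjusted p = 0.00291). The fall was larger in cDC1 by 0.58 ± 0.21 (adjusted p = 0.0779), a call lost in 9 of 20 fits that left out 1 sample (adjusted p up to 0.178, without TH2Minus replicate 3). That call was also lost with no filter on low values, with only the groups compared and in lane 8 only.

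Wipi1 rose in cDC2 from 65.1, 44.2 and 35.8 to 109, 125 and 116 without overlap (1.29 ± 0.60, adjusted p = 0.0849), whereas in cDC1 the counts of 16.9, 17.5, 17.2 and 6.06 and 20.3, 3.47 and 32.8 overlapped (0.04 ± 0.56, adjusted p = 0.962). The difference between the subsets did not pass (1.25 ± 0.82, adjusted p = 0.351), and the cDC2 call was lost in 5 of 20 fits that left out 1 sample (adjusted p up to 0.217, without TH2Minus replicate 3). That call was also lost with a pseudocount of 0.1, with no filter on low values and in lane 8 only (1.53, adjusted p = 0.139). Wipi2, which recruits the ATG16L1 complex, rose by 0.53 ± 0.14 and 0.52 ± 0.15. Wdr45, also known as WIPI4, rose in cDC1 (1.30 ± 0.43, adjusted p = 0.0141) with immature samples between 18.3 and 99.0 and mature samples between 125 and 138, and did not pass in cDC2 (0.83 ± 0.46). Atg9a, the lipid scramblase of the seed vesicles, was at 469, 367, 318 and 400 in TH1Minus and 300, 289 and 415 in TH1Plus, which overlapped, and at 282, 269 and 206 in TH2Minus and 395, 395 and 341 in TH2Plus, which did not. It rose in cDC2 (0.59 ± 0.22, adjusted p = 0.035) and did not pass in cDC1 (-0.22 ± 0.21), and the difference of 0.81 ± 0.30 passed (adjusted p = 0.0885). The cDC2 rise was lost without TH2Minus replicate 3 (adjusted p = 0.156). The difference was lost in 11 of 20 fits that left out 1 sample (adjusted p up to 0.202, without TH2Minus replicate 3). It was also lost with edgeR and RLE factors, with no filter on low values and in lane 8 only.

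The conjugation enzymes did not move one way. Atg12, the ubiquitin-like partner of ATG5, rose by 0.64 ± 0.18 and 0.76 ± 0.19, and Atg10, the enzyme that attaches it, by 0.66 ± 0.21 and 0.54 ± 0.22, the last call being lost without TH2Minus replicate 1, TH2Plus replicate 1 or TH2Plus replicate 3 (adjusted p up to 0.21, without TH2Minus replicate 1). The Atg10 call in cDC2 was also lost in lane 8 only (0.40, adjusted p = 0.259). Atg5 rose in cDC1 (0.68 ± 0.14, adjusted p = 0.000431) and did not pass in cDC2 (0.20 ± 0.15). The E2-like enzyme Atg3, which loads ATG8 proteins and was picked after its values were seen, fell from 3371, 3987, 4369 and 4039 to 2420, 2145 and 2417 in cDC1 and from 2378, 2555 and 2773 to 1430, 1525 and 1786 in cDC2. The groups did not overlap (-0.76 ± 0.14, adjusted p = 0.000131, and -0.70 ± 0.15, adjusted p = 0.000754).

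Atg7, the E1-like enzyme of both conjugation routes, fell in cDC2 (-0.94 ± 0.26, adjusted p = 0.00526) and did not pass in cDC1 (-0.05 ± 0.24), with a difference of -0.89 ± 0.36 that did not pass (adjusted p = 0.109). Atg16l1, the scaffold of the ATG12-ATG5 complex, fell in cDC2 (-0.77 ± 0.16, adjusted p = 0.00041) and did not pass in cDC1 (-0.27 ± 0.15). Its relative Atg16l2 had counts of 438, 396, 343 and 266 in TH1Minus, 404, 624 and 537 in TH1Plus, 426, 485 and 456 in TH2Minus and 283, 319 and 303 in TH2Plus. It rose in cDC1 with 1 overlapping sample (0.53 ± 0.22, adjusted p = 0.0434) and fell in cDC2 without overlap (-0.60 ± 0.23, adjusted p = 0.0428), and the difference of -1.13 ± 0.32 passed (adjusted p = 0.0238). The cDC1 rise was lost without TH1Minus replicate 4 or TH1Plus replicate 2 (adjusted p up to 0.183, without TH1Plus replicate 2). The cDC2 fall was lost without TH2Minus replicate 2 or TH2Plus replicate 1 (adjusted p up to 0.11, without TH2Plus replicate 1).

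Among the ATG4 proteases, which trim ATG8 proteins and later release them from the membrane, Atg4a rose from 220, 277, 298 and 228 to 686, 917 and 449 in cDC1 and from 254, 356 and 218 to 415, 411 and 665 in cDC2. The groups did not overlap (1.37 ± 0.28, adjusted p = 0.000307, and 0.84 ± 0.30, adjusted p = 0.0273), and the cDC2 call was lost without TH2Minus replicate 3 or TH2Plus replicate 3 (adjusted p up to 0.144, without TH2Plus replicate 3). Reads of Atg4a can be shared with the copy Atg4a-ps, 99.3% identical over 2115 bases, whose normalized read count reached 153. Atg4b rose in cDC2 (0.40 ± 0.14, adjusted p = 0.025) and did not pass in cDC1 (0.03 ± 0.13). The cDC2 call was lost in lane 8 only (0.34, adjusted p = 0.154). Atg4c (0.22 ± 0.26 and -0.03 ± 0.28) and Atg4d (0.38 ± 0.25 and 0.43 ± 0.27) passed in neither subset.

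**Figure D5:**
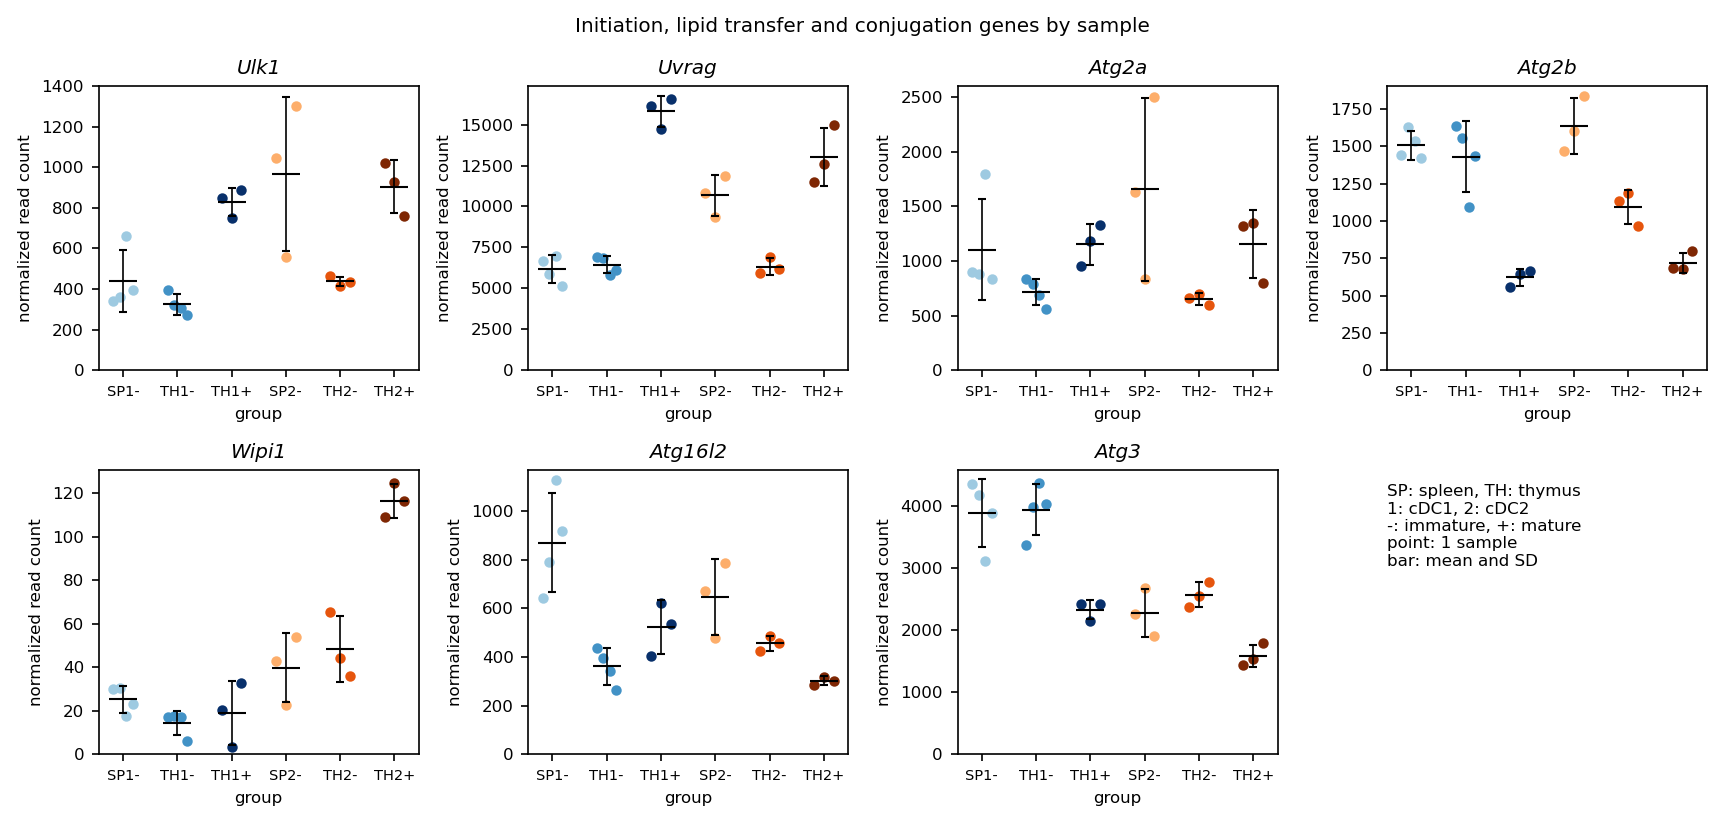
Normalized read count (vertical axis, linear, from 0) of 7 initiation, lipid and conjugation genes in the 6 groups (horizontal axis), 1 point per sample with the mean and SD as bars. Uvrag and Ulk1 are higher in mature than in immature thymic cells, Atg2b and Atg3 are lower, and Wipi1 is highest in mature thymic cDC2 (109 to 125).

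Markers of other cells moved with maturation. Of the 10 thymocyte and T cell markers 8 were tested, and all 8 rose in both subsets. Their summed normalized read count was 187 to 273 in TH1Minus and 1369 to 2586 in TH1Plus, and 190 to 307 in TH2Minus and 836 to 1370 in TH2Plus. Ptcra was at 0 in every TH1Minus sample and no other marker of that list was at 0 throughout a thymic group. The summed level of 9 macrophage markers was 3503 to 6412 in TH1Minus and 281 to 923 in TH1Plus, where 5 fell and 1 rose, and 22630 to 29729 in TH2Minus and 3413 to 20914 in TH2Plus, where 3 fell. The lowest TH2Plus sum was that of replicate 3, and the other 2 samples reached 19734 and 20914. None of the 9 was at 0 throughout a group. Of 6 tested markers of thymic epithelium and stroma, 1 rose and 1 fell in cDC1 and 3 rose and 2 fell in cDC2, where the 8 listed genes summed to 3497 to 3826 in TH2Minus and 677 to 1016 in TH2Plus. Of 7 tested plasmacytoid cell markers, 2 rose and 3 fell in cDC1 and 2 rose and 4 fell in cDC2, and the list of 8 summed to 5230 to 6047 in TH1Minus, 6181 to 9706 in TH1Plus, 12025 to 13635 in TH2Minus and 11270 to 15078 in TH2Plus. The part of these cells in the maturation values was not tested. Restricted to lane 8, in which all mature libraries were run, 28 members passed in cDC1 and 22 in cDC2. The share of all genes in that fit is not given, so nothing particular to the members is read from these counts.

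Genes that act beside the 38 members were followed in 3 further lists. Of 14 membrane and fusion factors, 5 rose and 5 fell in cDC1, and 5 rose and 3 fell in cDC2 (median log2 fold change 0.05 and 0.13). Among all tested genes 30.4% rose and 33.7% fell in cDC1 and 27.7% and 25.5% in cDC2, with medians of -0.04 and 0.04, so nothing particular to these lists is read from their counts. Their largest changes were those of Rubcnl (PACER), which promotes autophagosome maturation and fell by 3.36 in cDC1 and by 2.86 in cDC2 on the log2 scale, and of Rubcn (Rubicon), which restrains the UVRAG complex and rose by 2.08 ± 0.17 and 2.75 ± 0.18. Rubcnl was at 1796 to 2153 in TH1Minus and 120 to 293 in TH1Plus, and Rubcn at 871 to 1281 and 3998 to 5118. Nrbf2, a subunit that joins the ATG14 form of the lipid kinase, rose by 1.31 ± 0.36 and 2.25 ± 0.38. Of 12 tested selective receptors and adaptors, 5 rose and 3 fell in each subset (median 0.36 and 0.27), led in cDC1 by the ferritin receptor Ncoa4 (1.90 ± 0.16), the receptor kinase Tbk1 (1.58 ± 0.17) and the aggregate adaptor Wdfy3 (-0.88 ± 0.25), and in cDC2 by Ncoa4 (1.65 ± 0.17), Ccpg1 (-1.15 ± 0.41) and Bnip3 (-0.92 ± 0.29).

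Of 17 tested nutrient and energy kinase genes, 8 rose and 4 fell in each subset (median 0.49 and 0.33). Deptor, an inhibitor of mTOR, fell by 3.69 in cDC1 and by 3.03 in cDC2 on the log2 scale, with normalized read counts between 264 and 525 in TH1Minus and between 19.1 and 44.2 in TH1Plus. Tsc1, a subunit of the complex that restrains mTORC1, rose by 1.90 ± 0.14 and 1.83 ± 0.15, as did Rptor in cDC1 (1.27 ± 0.19), the mTORC1 scaffold, and Ddit4 in cDC2 (2.12 ± 0.47), a stress-induced mTORC1 inhibitor. Members of this list with opposite known effects on mTORC1 thus changed in the same comparison, and no sum over them was tested.

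The second comparison asked whether immature cDCs of the thymus differ from those of the spleen. It uses the same immature thymic samples as the maturation comparison, so the 2 sets of values are not independent. In cDC1, 0 members were higher and 1 was lower in the thymus by limma, against 7.72% and 7.70% of tested genes, and 1 changed above 2-fold, against 8.77%. At an unadjusted p below 0.05, 0 members were higher and 3 lower, and edgeR and DESeq2 also called 0 higher. In cDC2, 4 were higher and 6 lower, against 14.9% and 11.6%, and 3 changed above 2-fold, against 14.2%. On the recovered reads DESeq2 called 4 higher and 14 lower. The shares of all tested genes given here are those of limma at the adjusted threshold. They do not serve for the DESeq2 counts or the unadjusted ones, from which nothing particular to the members is read. The medians of the members were -0.08 and -0.20, and those of all genes were 0.00 and 0.02. The difference between the subsets passed for 1 member, against 6.25% of tested genes.

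Atg16l2 was the member that passed in cDC1. Its normalized read counts were 644, 790, 1127 and 920 in SP1Minus and 438, 396, 343 and 266 in TH1Minus, without overlap (-1.26 ± 0.20, adjusted p = 0.000151). In cDC2 it was at 673, 480 and 789 in SP2Minus and 426, 485 and 456 in TH2Minus, which overlapped, and the value of -0.48 ± 0.23 did not pass (adjusted p = 0.17). The difference between the subsets did not pass either (0.79 ± 0.31, adjusted p = 0.202).

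In cDC2, Optn was higher in the thymus, at 127, 90.4 and 79.4 against 45.8, 29.4 and 31.0 in the spleen (1.46 ± 0.38, adjusted p = 0.00887). In cDC1 the splenic samples at 30.9, 52.3, 46.2 and 55.3 overlapped the thymic ones (0.18 ± 0.33). Ulk1 was lower in thymic cDC2, with splenic counts of 1046, 555 and 1302 and thymic counts of 462, 416 and 436 (-1.06 ± 0.27, adjusted p = 0.00752). Atg2a followed the same order, from 1629, 831 and 2506 in SP2Minus to 658, 700 and 597 in TH2Minus (-1.21 ± 0.33, adjusted p = 0.0114). For both genes SP2Minus replicate 2 was well below the other splenic cDC2 samples, and the splenic samples varied more than the thymic ones.

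Uvrag was at 10795, 9367 and 11858 in SP2Minus against 5926, 6894 and 6162 in TH2Minus (-0.75 ± 0.15, adjusted p = 0.000932). In cDC1 it was at 6694, 5860, 6975 and 5125 in the spleen and did not pass (0.07 ± 0.13, adjusted p = 0.844). This was the member whose tissue effect differed between the subsets (-0.82 ± 0.20, adjusted p = 0.0155). Also lower in thymic cDC2 were Ambra1 (-0.67 ± 0.18), Atg9a (-0.66 ± 0.22) and Atg2b (-0.58 ± 0.16), and also higher were Atg16l1 (0.61 ± 0.16), Gabarap (0.52 ± 0.17) and Atg5 (0.51 ± 0.15). Gabarap was at 5631, 4948 and 5030 in SP2Minus and 7360, 6985, 7658 and 7375 in SP1Minus. The Atg9a call was lost without SP2Minus replicate 1, SP2Minus replicate 3 or TH2Minus replicate 3 (adjusted p up to 0.187, without SP2Minus replicate 3). This call was also lost with only the groups compared. That of Gabarap was lost without SP2Minus replicate 3 or TH2Minus replicate 3 (adjusted p up to 0.177, without TH2Minus replicate 3). SP2Minus had 2 libraries in lane 5 and 1 in lane 8. A fit in lane 8 thus rests on 1 splenic cDC2 sample and decides no call. Its log2 fold changes were 1.42 for Optn, 0.61 for Atg16l1, 0.65 for Atg5 and 0.62 for Gabarap. Without SP2Minus replicate 2, 16 members passed in place of 10, 12 of them lower in the thymus. The share of all genes that passed without this sample is not given, so nothing particular to the members is read from this.

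The other ATG8 genes and receptors did not pass between tissues. Map1lc3b was at 2859, 2166, 2970 and 2376 in SP1Minus and 4421, 2495 and 4321 in SP2Minus, and Map1lc3a at 166, 123, 313 and 142 and 307, 142 and 336. Gabarapl1 was at 1892, 1271, 1613 and 1055 in SP1Minus and 3742, 2509 and 2922 in SP2Minus, and its cDC2 value of -0.50 ± 0.21 was just outside the threshold (adjusted p = 0.101). Gabarapl2 was at 1560, 1505, 1357 and 1663 and 1681, 1197 and 1119 in the same groups. These splenic samples overlapped the immature thymic ones of their subset, except for Gabarapl1 in cDC2.

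Sqstm1 was at 7215, 4324, 8931 and 4365 in SP1Minus and 8084, 3472 and 8478 in SP2Minus, within the range of the immature thymic samples or around it. Nbr1 was at 1849, 2511, 1719 and 2189 and 1671, 2177 and 1817, Tax1bp1 at 9502, 8101, 5112 and 7264 and 5624, 7500 and 5076, and Calcoco1 at 314, 506, 637 and 470 and 615, 449 and 725. The thymic and splenic samples of these receptors overlapped, other than those of Calcoco1 in cDC2.

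Markers of other cells also differed between the tissues. The summed level of 8 thymic epithelial and stromal markers was 44.4 to 77.2 in SP1Minus and 579 to 708 in TH1Minus, and 108 to 167 in SP2Minus and 3497 to 3826 in TH2Minus, with Epcam, which some myeloid cells also express, giving 3391 to 3715 of the last. The thymocyte and T cell markers summed to 48.4 to 83.8 in SP1Minus and 35.0 to 87.9 in SP2Minus, with Rag2, Themis and Bcl11b at 0 in the former and Rag1 and Rag2 in the latter. Erythroid markers summed to 43.2 to 96.0 in SP1Minus, 16.5 to 39.1 in SP2Minus and at most 3.35 in the immature thymic groups. The 7 B cell markers summed to 568 to 984 in SP1Minus and 106 to 139 in TH1Minus, and to 600 to 637 in SP2Minus and 170 to 240 in TH2Minus. Of 7 tested plasmacytoid cell markers 6 were more than 2-fold higher in thymic cDC2, and the list of 8 summed to 5527 to 5689 in SP2Minus and 12025 to 13635 in TH2Minus, and to 3617 to 4210 in SP1Minus and 5230 to 6047 in TH1Minus. Of 9 macrophage markers 3 were higher in thymic cDC2, while their sums of 21666 to 34188 in SP2Minus and 22630 to 29729 in TH2Minus overlapped. The 7 neutrophil and monocyte markers summed to 1085 to 1804 in SP2Minus and 631 to 751 in TH2Minus. The part of all these cells in the tissue values was not tested.

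The third comparison set cDC2 against cDC1 within each tissue and state. In the spleen 6 members were higher in cDC2 and 2 lower, against 16.0% and 13.4% of tested genes, and 2 differed above 2-fold, against 16.6%. Among immature thymic cells 6 were higher and 4 lower, against 15.5% and 10.5%, and 1 differed above 2-fold, against 16.4%. Among mature thymic cells 9 passed, against 30.3% of tested genes, of which 2 were higher in cDC2, against 3148 of 14970 tested genes, and 7 lower, against 9.27%. In these cells 2 differed above 2-fold, against 18.9%. The medians of the members were 0.14, 0.04 and 0.01, and those of all genes were 0.02, 0.01 and 0.14.

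Atg3 was lower in cDC2 in all 3 settings (-0.77 ± 0.14 in the spleen, -0.61 ± 0.14 in immature and -0.56 ± 0.15 in mature thymic cells). Its splenic counts were 4351, 4177, 3116 and 3884 in SP1Minus and 2260, 2674 and 1905 in SP2Minus, and the groups did not overlap in any of the 3 settings. Gabarapl1 was the other member to pass in all 3, but it was higher in cDC2 in the spleen and the immature thymus and lower in the mature thymus.

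In the spleen, Ulk1 was higher in cDC2, at 1046, 555 and 1302 against 339, 359, 663 and 396 in cDC1 (1.11 ± 0.25, adjusted p = 0.00222). SP1Minus replicate 3 and SP2Minus replicate 2 overlapped. Gabarapl1 was higher as well (1.08 ± 0.20, adjusted p = 0.000263), without overlap. Atg4c was at 259, 342, 162 and 270 in SP1Minus and 424, 532 and 406 in SP2Minus, and at 260, 263, 153 and 309 in TH1Minus and 361, 441 and 366 in TH2Minus. It stood higher in cDC2 in both tissues (0.85 ± 0.26, adjusted p = 0.0196, and 0.70 ± 0.26, adjusted p = 0.0622), the thymic call being lost without TH1Minus replicate 3, TH2Minus replicate 1, TH2Minus replicate 2 or TH2Minus replicate 3 (adjusted p up to 0.211, without TH2Minus replicate 2). Uvrag (0.80 ± 0.14), Atg14 (0.54 ± 0.19) and Map1lc3b (0.50 ± 0.21) were also higher in splenic cDC2 and Gabarap was lower (-0.50 ± 0.16). The call of Map1lc3b was lost in 12 of 20 fits that left out 1 sample (adjusted p up to 0.353, without SP2Minus replicate 1). This call was also lost with values rescaled by TMM, no filter on low values, only the groups compared and 1 sample per label number. That of Atg14 was lost without SP1Minus replicate 4 or SP2Minus replicate 3 (adjusted p up to 0.189, without SP2Minus replicate 3). The fit in lane 8, with 1 SP2Minus sample, decides no call between splenic subsets. Its log2 fold changes were 0.95 for Atg4c, 0.74 for Atg14, 0.70 for Map1lc3b and -0.58 for Gabarap.

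Among immature thymic cells, Wipi1 was higher in cDC2, at 65.1, 44.2 and 35.8 against 16.9, 17.5, 17.2 and 6.06 (1.74 ± 0.56, adjusted p = 0.0298), as was Optn (0.91 ± 0.36, adjusted p = 0.0779). Neither gene overlapped between the subsets. The Wipi1 call was lost without TH2Minus replicate 1 (adjusted p = 0.131). The Optn call was lost without TH1Minus replicate 2, TH1Minus replicate 4, TH2Minus replicate 1 or TH2Minus replicate 2 (adjusted p up to 0.286, without TH2Minus replicate 1), and also with the replicate block over immature groups, with only the groups compared, with no filter on low values and in lane 8 only (adjusted p = 0.298). Atg9a was lower in cDC2 (-0.62 ± 0.21, adjusted p = 0.0359), again without overlap, and its call was lost without TH1Minus replicate 1 or TH2Minus replicate 3 (adjusted p up to 0.188, without TH2Minus replicate 3). Atg5 (0.61 ± 0.14), Atg16l1 (0.52 ± 0.15) and Gabarapl1 (0.59 ± 0.20) were higher, and Gabarapl2 (-0.47 ± 0.19) and Atg2b (-0.38 ± 0.15) lower. Only Atg2b overlapped among these 5. The call of Gabarapl1 was lost without TH1Minus replicate 2 or TH2Minus replicate 3 (adjusted p up to 0.153, without TH2Minus replicate 3). That of Gabarapl2 was lost in 9 of 20 fits that left out 1 sample (adjusted p up to 0.396, without TH2Minus replicate 1), and that of Atg2b in 5 of 20 fits that left out 1 sample (adjusted p up to 0.287, without TH2Minus replicate 3). In lane 8 only, the immature thymic calls of Wipi1, Atg9a, Gabarapl1, Gabarapl2, Atg2b and Atg4c were lost as well. That of Gabarapl2 was also lost with lane as a covariate, 1 sample per label number and no filter on low values. That of Atg2b was also lost with only the groups compared.

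Among mature thymic cells, Wipi1 was higher in cDC2 by 2.99 ± 0.60 (adjusted p = 0.00102), from 20.3, 3.47 and 32.8 in TH1Plus to 109, 125 and 116 in TH2Plus, the widest subset difference among the members in these cells. Optn (-1.54 ± 0.38, adjusted p = 0.00568) and Sqstm1 (-0.92 ± 0.30, adjusted p = 0.0305) were lower in cDC2 without overlap. Lower too, without overlap, were Atg16l2 (-0.77 ± 0.23, adjusted p = 0.0215) and Gabarapl1 (-0.54 ± 0.21), and with overlap Tax1bp1 (-0.50 ± 0.21) and Nbr1 (-0.41 ± 0.17). Of the 5 cargo receptors, 4 were lower in mature cDC2 than in mature cDC1, against 9.27% of all tested genes, and Calcoco1 did not pass (0.52 ± 0.23). Tax1bp1 was not called by edgeR or DESeq2 and Nbr1 not by edgeR with TMM factors. The calls of Tax1bp1 and Nbr1 were also lost with values rescaled by TMM, no filter on low values, only the groups compared and lane 8 only. Ulk2 was higher (0.42 ± 0.15, adjusted p = 0.0479), a call lost without TH1Plus replicate 1, TH1Plus replicate 2 or TH2Plus replicate 1 (adjusted p up to 0.157, without TH1Plus replicate 2). The call of Gabarapl1 was lost without TH1Plus replicate 2, TH1Plus replicate 3 or TH2Plus replicate 1 (adjusted p up to 0.289, without TH2Plus replicate 1). That of Tax1bp1 was lost in 14 of 20 fits that left out 1 sample (adjusted p up to 0.369, without TH2Plus replicate 1), and that of Nbr1 in 8 of 20 fits that left out 1 sample (adjusted p up to 0.342, without TH2Plus replicate 2).

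All 9 macrophage markers passed as higher in cDC2 in the spleen and in the mature thymus, and 8 in the immature thymus. Their summed level was 3765 to 6363 in SP1Minus and 21666 to 34188 in SP2Minus, and 281 to 923 in TH1Plus and 3413 to 20914 in TH2Plus. Some of these genes, such as Csf1r and Cd68, are also expressed by cDC2, and the part of macrophages in the values was not tested. Pik3c3, Pik3r4, Atg101 and Atg4d passed in none of the 7 comparisons of 2 groups, and their largest log2 fold change in size was -0.56 ± 0.31 for Atg101 in maturation of cDC1.

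Exons of 14 members overlap another annotated gene, 13 of them one on the opposite strand, among them Becn1 with Cntd1 over 3104 bases and Sqstm1 with Mrnip over 580 bases. The libraries were made with a stranded kit, but the strand setting of the counting is not given in the sources used here. How reads of such pairs were assigned, or whether they were left out, is therefore not known.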

How the data were processed

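RNA of FACS-sorted cDCs, enriched by CD11c beads, was sequenced as stranded mRNA libraries on an Illumina sequencer. In the authors' pipeline, reads were trimmed by Cutadapt, STAR (2.6) was the aligner to mm10, HTSeq-count gave reads per gene and DESeq2 (1.24.0) normalized them (versions from the submitters' processing notes). The Ensembl release and the strand setting of counting are not given in the sources used here. The deposited files hold 1 normalized read count per gene and library, a signal that the authors made by dividing gene counts by a size factor. Each library's values were whole multiples of its smallest step (100% of values within 0.01 of a whole number), so reads were recovered for count tests and depth. The identifiers of 37607 of 37734 genes matched GENCODE mouse release 21 (GRCm38), which gave exon lengths.

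Group means of log2(normalized read count + 1) were compared with limma (3.58.1, R 4.3.3) in 1 model over the 20 samples. Tested were the 14970 genes that reached 10 in 3 samples or more. A gene passed at a Benjamini-Hochberg adjusted p under 0.1, and fold changes on this scale understate changes of low genes. On the recovered reads, edgeR (4.0.16) with TMM factors called 4687 genes higher and 4792 lower in maturation of cDC1, and 4273 and 3757 in cDC2. DESeq2 (1.42.0) was also run as an alternative. The steps were tested on simulated data.

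The members and gene lists were chosen with earlier results of these data known. Values in every sample are given for the ATG8 family, the cargo receptors and up to 4 members per comparison with the largest fold changes among those that passed. Of the 3 lists of neighbouring genes, up to 3 are named per list and comparison. Samples are pools of mice and no source states that pools of 1 group were collected independently, so p-values measure the spread between these samples. The main model did not treat samples of the same label number as pairs. Deviations of same-numbered cDC1 and cDC2 samples correlated at -0.0781 to 0.461 in 4 splenic pairs, against -0.492 to 0.244 in pairs of other numbers. In the immature thymus the values were -0.150 to 0.276 in 4 pairs, against -0.224 to 0.258. TH1Plus replicate 1 shared its number with TH1Minus replicates 3 and 4 (-0.0598 and 0.120, against -0.217 to 0.160 in pairs of other numbers). TH1Plus replicate 3 and TH2Plus replicate 3 also shared a number (-0.122, against -0.0998 to 0.170). So few pairs cannot decide whether same-numbered samples are paired.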

Additional observations from a re-analysis of the deposited data

Results flagged for a closer look

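Within groups of 4 samples, 5 values stood far from the others by Dixon's criterion, among 76 gene and group combinations examined, of which chance gives about 1 in 20. Becn1 in SP1Minus replicate 1 had a normalized read count of 4041, Atg2a in SP1Minus replicate 3 was at 1793 and Atg4d in the same sample at 522. In TH1Minus replicate 4, Atg14 was at 243 and Wipi1 at 6.06.

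The effect of maturation differed between cDC2 and cDC1, as the log2 fold change in cDC2 minus that in cDC1, for Optn by -2.45 (limma, adjusted p = 0.00362), for Gabarapl1 by -1.13 (adjusted p = 0.0127) and for Atg16l2 by -1.13 (adjusted p = 0.0238). It differed in the other direction for Atg9a by 0.81 (adjusted p = 0.0885) and for Atg2b by 0.58 (adjusted p = 0.0779). The effect of tissue differed between the subsets for Uvrag by -0.82 (adjusted p = 0.0155). Each of these 6 differences was tested as an interaction over all 20 samples.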

How the results depend on the processing

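Of 99 calls of members, 59 were kept in direction and significance under every alternative setting run for their comparison (12 to 15 settings, 2 of them with or without a replicate block and run only for comparisons within the immature groups) and all 20 fits without 1 sample, 40 were lost in at least 1, and 0 reversed. Restriction to lane 8, which leaves fewer samples, lost 26 calls, no filter on low values lost 11 and fitting only the groups compared lost 8. Using 1 sample per label number lost 5, among them Atg2a, Ambra1 and Ulk2 in maturation of cDC1, Map1lc3b between subsets in the spleen (adjusted p = 0.113) and Gabarapl2 in the immature thymus (0.156). In lane 8, SP2Minus had 1 library, so the comparisons that use it rest on 1 sample that is assumed to vary like the other groups. Leaving out 1 sample at a time, members that passed ranged from 24 to 28 for maturation in cDC1, 21 to 29 in cDC2, 1 to 3 for tissue in cDC1 (above 1 without SP1Minus replicate 1, SP2Minus replicate 2 or TH1Minus replicate 1, 2 or 4), 8 to 16 in cDC2 (16 without SP2Minus replicate 2), 6 to 12 between subsets in the spleen, 5 to 11 in the immature thymus (5 without TH2Minus replicate 1, 6 without TH1Minus replicate 2 or TH2Minus replicate 3) and 5 to 10 in the mature thymus (5 without TH2Plus replicate 1 or TH1Plus replicate 2). The difference of maturation effects ranged from 3 (without TH1Minus replicate 2 or 4, TH2Minus replicate 3, TH1Plus replicate 1 or TH2Plus replicate 1) to 7, and that of tissue effects from 1 to 3 (above 1 without SP2Minus replicate 2, TH1Minus replicate 1 or 3 or SP1Minus replicate 3). For tissue in cDC1, in place of 1 member, 2 passed with edgeR and RLE factors, 3 with DESeq2, 3 with all 21 libraries, 2 with lane as a covariate and 3 in lane 8 only. For tissue in cDC2, in place of 10, 18 passed with DESeq2 and 6 in lane 8 only. In lane 8 only, 4 passed between subsets in the spleen in place of 8, and 3 in the immature thymus in place of 10. The difference of maturation effects had 3 in place of 5 with no filter and 3 in lane 8 only. That of tissue effects had, in place of 1, 2 with DESeq2, 2 with only the groups compared, and in lane 8 only 0 by limma (2 at an unadjusted p below 0.05). Beyond the fewer samples or tests that some settings leave, the cause was not tested. The counts by setting are not set against the share of all genes in each setting and describe the members alone. With the replicate number as a block over the immature groups, 11 members passed in the spleen (9 without the block in the same samples), 13 in the immature thymus (10 without) and 3 for the difference of tissue effects (2 without). The block lost 1 call, that of Optn in the immature thymus. Depth limits Wipi1, Optn and Wdr45, which had as few as 2, 19 and 22 reads in a sample.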

Other observations

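Among 17 tested nutrient and energy kinase genes beside the machinery, 6 passed between subsets in the spleen and 3 between tissues in cDC2. Ddit4, which restrains mTORC1 under stress, had normalized read counts of 35.0, 65.1, 68.3 and 56.3 in SP1Minus, 625, 458 and 552 in SP2Minus and 115, 167 and 79.4 in TH2Minus. It was higher in splenic cDC2 than in splenic cDC1 (3.29 ± 0.44, adjusted p = 8.58e-06, limma) and lower in thymic than in splenic cDC2 (-2.22 ± 0.47, adjusted p = 0.00189). In mature thymic cells it was again higher in cDC2 (1.93 ± 0.47). Sesn3 and Sesn1, whose products sense amino acids and stress, were lower in the thymus, with Sesn3 at -1.07 ± 0.16 in cDC1 and -1.28 ± 0.18 in cDC2 and Sesn1 at -0.58 ± 0.20 and -0.79 ± 0.23, and Sesn2 passed in neither. Of the 17 tested genes of this list, 2 were lower in thymic cDC1 and 3 in thymic cDC2, against 7.70% and 11.6% of all tested genes. In cDC2 relative to cDC1, 5 were higher and 1 lower in the spleen, with Sesn1 at 1.14 ± 0.22 and Sesn2 at 0.94 ± 0.25, and 3 were higher and 2 lower in each thymic state. Of all tested genes 16.0% were higher and 13.4% lower in splenic cDC2, 15.5% and 10.5% in cDC2 of the immature thymus, and 30.3% passed in either direction and 9.27% were lower in the mature thymus. The counts of this list and of those that follow are a description to be read against these shares. Deptor was higher in cDC2 in the immature (1.02 ± 0.29) and mature thymus (1.68 ± 0.31). In the immature thymus Sesn1 (0.94 ± 0.22) and Sesn2 (0.71 ± 0.25) were higher as well, and in the mature thymus Prkab2, an AMPK subunit, was lower (-0.77 ± 0.23).

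Stx17, the SNARE of autophagosome and lysosome fusion, was lower in cDC2 than in cDC1 in the spleen (-0.97 ± 0.19, adjusted p = 0.000692), the immature thymus (-1.31 ± 0.19, adjusted p = 3.07e-05) and the mature thymus (-0.56 ± 0.21, adjusted p = 0.057). Its normalized read counts were 2167, 2210, 1709 and 1944 in TH1Minus and 792, 922 and 721 in TH2Minus, which did not overlap. Its partner Snap29 was higher in thymic than in splenic cDC2 (0.73 ± 0.20) and lower in splenic cDC2 than in splenic cDC1 (-0.44 ± 0.19). Of the 14 membrane and fusion factors, 2 were higher and 3 lower in thymic cDC2, against 14.9% and 11.6% of all tested genes, among them Rubcnl (-0.67 ± 0.22) and Epg5 (-0.62 ± 0.24). In cDC2 relative to cDC1, 3 were higher and 3 lower in the spleen, among them Tecpr1 (0.59 ± 0.24), 1 was higher and 3 lower in the immature thymus, among them Epg5 (-0.57 ± 0.22) and Rubcnl (-0.57 ± 0.21), and 2 were higher and 1 lower in the mature thymus, among them Vmp1 (0.75 ± 0.18) and Rubcn (0.48 ± 0.18).

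Of 12 tested selective receptors and adaptors, Retreg1, a receptor for the endoplasmic reticulum, was lower in the thymus in cDC1 (-0.67 ± 0.18) and cDC2 (-0.65 ± 0.21). The mitochondrial receptors Bnip3 (1.08 ± 0.29) and Fundc1 (0.68 ± 0.21) were higher in thymic cDC2, and Fundc1 was lower in splenic cDC2 than in splenic cDC1 (-0.94 ± 0.20). In the immature thymus Ccpg1 (0.95 ± 0.38), Ncoa4 (0.55 ± 0.16) and Bnip3l (0.43 ± 0.14) were higher in cDC2. In the mature thymus Tbk1 was lower in cDC2 (-0.75 ± 0.18) and Bnip3l (0.53 ± 0.15) and Tollip (0.39 ± 0.14) were higher.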
